A study of Mus musculus with 8 samples.

Results

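Neuropilins, semaphorins and plexins are the co-receptors, ligands and receptors of one guidance system, and the 9 genes described here were Nrp1, Nrp2, Sema4a, Sema4d, Sema7a, Plxna1, Plxnb2, Plxnc1 and Plxnd1. They were taken by symbol from a table of 49040 mouse genes, and they were chosen by name with earlier results of the same comparison known. Their genotype differences are therefore given as a description, and an adjusted p says only where a gene stood among all 14672 genes tested. All 9 passed the filter on low counts.

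RNA sequencing compared wild-type and Ikzf4-/- CD4+ T cells, with 4 libraries of each genotype, and all 8 libraries carry the strain label C57BL/6J. Eos, the product of Ikzf4, is a DNA-binding zinc-finger protein related to Ikaros. Naive cells of both genotypes were activated for 72 h on plates coated with antibodies to CD3 and CD28, in medium that favours Th1 cells, and total RNA was extracted. The titles number the libraries 1 to 4 within each genotype and do not say what a number stands for, so the p-values rest on variation among the deposited libraries, part of which may be technical. Age, sex and the way the Ikzf4 allele was made are not given in the labels, so a background difference between the mice and the absence of Eos cannot be told apart.

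Semaphorins are secreted or membrane-bound ligands that were first known from axon guidance. Most act through plexins, receptors whose cytoplasmic part switches off small GTPases of the Ras and Rap families and so alters integrin adhesion and the actin skeleton. Secreted class 3 semaphorins generally need a neuropilin as the ligand-binding co-receptor, whereas membrane-bound semaphorins can bind plexins directly. In the mouse immune system the family is known for contacts between T cells, B cells and dendritic cells, and Nrp1 is widely used as a surface marker of regulatory T cells that arise in the thymus.

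Library totals ran from 25227017 to 53149322 counts. Ikzf4 itself fell from 46.4 ± 6.55 to 3.31 ± 1.22 CPM (read counts scaled by library size; SD, n = 4), with 1386 to 1814 counts in each wild-type library and 75 to 139 in each Ikzf4-/- library (log2 difference -3.86, adjusted p = 2.2e-05 by edgeR's quasi-likelihood test). Libraries of the same number moved to the same side of their genotype means in many genes (r 0.612 to 0.732 across genes), and 8 of 8 libraries correlated best with the library of their own number. Numbers 3 and 4 were also alike across genotypes (r 0.433 and 0.538), and numbers 1 and 2 less so (0.15 and 0.304). The 4 numbers were thus not equally distinct. Both libraries numbered 2 held Xist at 503 CPM (wild type) and 588 CPM (Ikzf4-/-) and Ddx3y at 0.0282 CPM or less, while the other 6 held Xist at 0.570 CPM or less and Ddx3y at 61.0 to 91.7 CPM. The log2 differences below are Ikzf4-/- minus wild type with the library number as a block, and the value without the block is given where the call changes. With the block 984 of 14672 genes (6.71%) had an adjusted p under 0.05, 395 higher (2.69%) and 589 lower (4.01%) in Ikzf4-/- cells. Without the block 23 genes did (0.157%).

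The 5 CD4 T cell markers summed to 2070 to 2420 CPM in wild-type and 2070 to 2890 CPM in Ikzf4-/- libraries, and 0 of 5 were called by edgeR or DESeq2 with the block (2 had an unadjusted p under 0.05 in each). The 4 Th1 markers summed to 1200 to 2660 and 736 to 1560 CPM. Of these, edgeR called Ifng lower (log2 difference -1.17, adjusted p = 0.000232, and 0.28 without the block). DESeq2 called Ifng lower with the block (adjusted p = 4.23e-32) and without it (0.00679). Tbx21 and Cxcr3 were not called, and Il12rb2 was called lower only by DESeq2 with the block (0.0256, against 0.102 in edgeR). Other cells that carry neuropilins or plexins were also looked for. The sum of 4 regulatory T cell markers was 1870 to 3460 CPM in wild-type and 1200 to 2370 CPM in Ikzf4-/- libraries. With the block edgeR called 3 of 4 lower (Il2ra, Ctla4 and Ikzf2) and did not call Foxp3 (adjusted p = 0.0992). DESeq2 with the block called 4 of 4 lower, with Foxp3 at adjusted p = 0.0158, and Foxp3 was lower in 4 of 4 pairs. Il2ra, which activated T cells in general also express, made up most of that sum, at 2373 ± 560 and 1632 ± 384 CPM, while Foxp3 was at 6.98 ± 4.50 and 4.10 ± 4.07 CPM. The 4 gamma-delta T cell genes were all lower, with sums of 19.6 to 71.1 against 6.16 to 19.8 CPM. Without the block edgeR called 0 of 4 in either list, with 2 regulatory T cell and 4 gamma-delta T cell genes at an unadjusted p under 0.05, and DESeq2 called 0 and 4. NK cell genes summed to 3.11 CPM or less, and Klre1, the only 1 tested, was lower (adjusted p = 0.0285, and 0.734 without the block, both edgeR). Mast cell and basophil genes summed to 13.5 and 11.1 CPM in wild-type libraries 1 and 3 and to 0.429 CPM or less in the other 6, and B cell genes summed to 10.2 CPM in Ikzf4-/- library 1 against 1.13 CPM or less elsewhere. In bulk RNA, fewer cells of a type and less RNA per cell cannot be told apart. The part of these cells in the results below was not tested.

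Of the 9 genes, 2 were higher (Nrp1 and Plxna1), 2 were lower (Sema4d and Sema7a) and the remaining 5 missed the threshold with the block. The share called in either direction over all genes, 6.71%, stands beside this count for reference only, because the genes were chosen on this contrast. The median log2 difference of the 9 was 0.33, against 0.0027 over all genes tested. In 4 of the 9 the Ikzf4-/- library was higher in all 4 pairs (Nrp1, Nrp2, Plxna1 and Plxnb2), in 2 it was lower in all 4 (Sema4d and Sema7a), and 3 were mixed. The groups did not overlap in 1 of the 9 (Nrp1), and over all genes they did not overlap in 4.96%. Without the block 1 of the 9 was called, Nrp1.

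**Figure D1:**
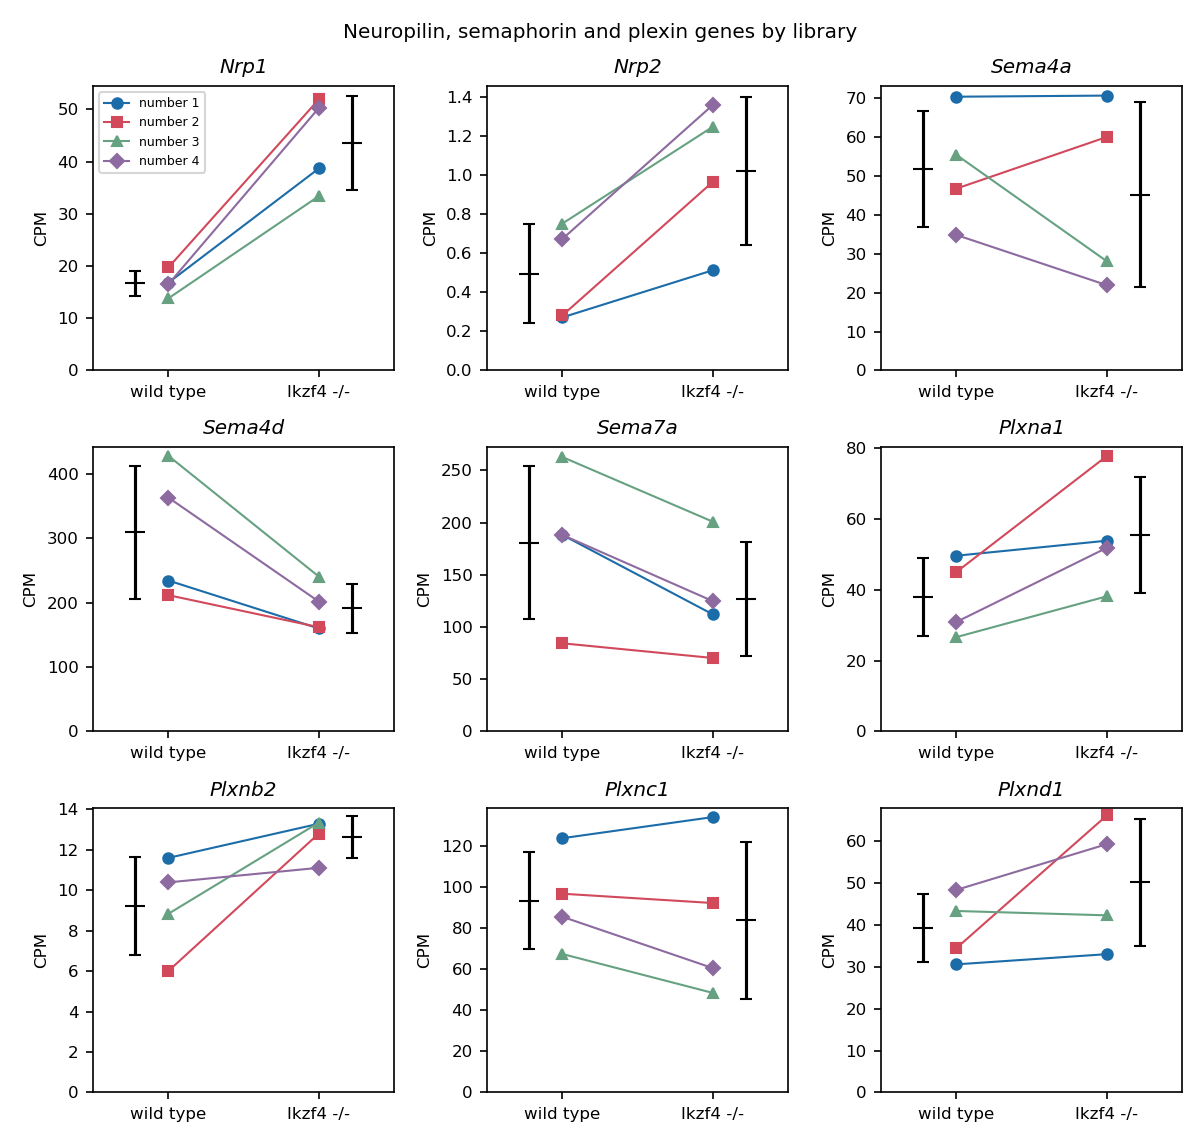
CPM of each of the 9 genes in the 8 libraries, with lines joining libraries of the same number, and black bars with whiskers for the group mean and SD (n = 4). Nrp1 lies between 13.8 and 19.7 CPM in wild-type and between 33.4 and 51.9 CPM in Ikzf4-/- libraries, and the groups of the other 8 genes overlap.

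Nrp1, a co-receptor for class 3 semaphorins and VEGF and in the mouse also a receptor for Sema4a on regulatory T cells, was the member with the smallest adjusted p. Its level was 16.8, 19.7, 13.8 and 16.5 CPM in wild-type libraries 1 to 4 and 38.7, 51.9, 33.4 and 50.3 CPM in Ikzf4-/- libraries 1 to 4. Every Ikzf4-/- library lay above every wild-type library. The means were 16.7 ± 2.42 and 43.6 ± 8.99 CPM (SD, n = 4), a 2.61-fold ratio of means. The log2 difference was 1.37 ± 0.095 (SE), with adjusted p = 0.000232, rank 16 by p among all genes, and 1.20 to 1.60 in the 4 pairs. Without the block the adjusted p was 0.0187, and leaving out each pair in turn gave log2 differences of 1.29 to 1.42 with adjusted p of 0.000391 to 0.00321. Counts added up to 2281 in wild-type and 6339 in Ikzf4-/- libraries. In the authors' deposited table the adjusted p of Nrp1 was 2.98e-09, from DESeq2.

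Marker lists of other cells that also carry Nrp1 are given beside it, and their part in the Nrp1 difference was not tested. The plasmacytoid dendritic cell list summed to 46.2 to 85.5 CPM in wild-type and 57.2 to 114 CPM in Ikzf4-/- libraries, nearly all of it Bst2, while Siglech was at 0 in all libraries but 1 (0.0327 CPM in wild-type library 3). The conventional dendritic cell list summed to 2.54 to 5.41 and 2.46 to 8.86 CPM, with Clec9a at 0 in all libraries, and the macrophage and monocyte list to 1.18 and 1.95 CPM at most. The endothelial list summed to 16.4 to 45.9 and 20.7 to 23.3 CPM, most of it Pecam1.

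Nrp2, the co-receptor known for binding Sema3F and VEGF-C, was near the lower limit of what was counted. Wild-type libraries 1 to 4 held 0.272, 0.282, 0.753 and 0.674 CPM and Ikzf4-/- libraries 0.513, 0.966, 1.25 and 1.36 CPM. The Ikzf4-/- library was the higher one in 4 of 4 pairs, but the groups overlapped. The log2 difference was 1.09 ± 0.28 with adjusted p = 0.0548, from 62 counts in wild-type and 138 in Ikzf4-/- libraries, so it did not pass the threshold. Without the filter on low counts the adjusted p was 0.0111, and without the block it was 0.593. The fit without the filter gave Nrp2 a log2 difference of 1.08 ± 0.32, and it lowered the adjusted p of Nrp1 as well, to 1.74e-31. What lowered the p of Nrp2 in that fit was not tested.

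The start regions of Nrp1, Nrp2 and Sema7a are shown to set the called higher gene Nrp1 beside its relative Nrp2 and the called lower gene Sema7a. They were searched for GGGAA, the core letters of sites that Ikaros-family factors are known to bind. They were picked for display after their values were seen. The windows are RefSeq's (GRCm38.p6), 250 bases before to 50 after a gene start, read 5′ to 3′ on the gene's strand, at chr8:128358823-128359122 for Nrp1, chr1:62703067-62703366 for Nrp2 and chr9:57939862-57940161 for Sema7a, all on the plus strand. Capitals mark GGGAA on either strand (TTCCC on the strand shown).
Nrp1: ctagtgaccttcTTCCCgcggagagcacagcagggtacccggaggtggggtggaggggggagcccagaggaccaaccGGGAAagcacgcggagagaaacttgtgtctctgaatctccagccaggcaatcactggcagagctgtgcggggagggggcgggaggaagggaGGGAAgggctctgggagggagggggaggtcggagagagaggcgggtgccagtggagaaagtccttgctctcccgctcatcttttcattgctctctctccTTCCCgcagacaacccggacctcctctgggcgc
Nrp2: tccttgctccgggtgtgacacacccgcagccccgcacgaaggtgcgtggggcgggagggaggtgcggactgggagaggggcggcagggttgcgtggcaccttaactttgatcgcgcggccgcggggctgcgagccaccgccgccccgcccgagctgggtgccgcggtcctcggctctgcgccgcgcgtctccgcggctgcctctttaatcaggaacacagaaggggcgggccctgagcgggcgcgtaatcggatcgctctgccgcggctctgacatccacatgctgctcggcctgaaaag
Sema7a: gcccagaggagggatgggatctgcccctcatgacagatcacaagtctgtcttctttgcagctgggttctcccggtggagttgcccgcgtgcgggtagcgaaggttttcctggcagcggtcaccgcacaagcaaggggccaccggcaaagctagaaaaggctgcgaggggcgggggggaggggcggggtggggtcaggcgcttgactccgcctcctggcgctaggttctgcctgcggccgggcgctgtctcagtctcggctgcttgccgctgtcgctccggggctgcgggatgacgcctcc
The Nrp1 window held 4 matches, 2 on each strand, and the Nrp2 and Sema7a windows held 0. These windows are not like stretches by the GENCODE M21 annotation. There Nrp1 starts at 128358604, so its window lies inside the gene, while the starts of Nrp2 (62703285) and Sema7a (57940112) fall within their windows. Of all 32851 RefSeq windows of that length 62.7% held at least 1 match, the median was 1, and 2.31% held 4 or more. For the 8 members with a window (not Plxna1), 10 of 14 start windows held a match, with 3, 1, 3 and 2 in the 4 windows of Sema4a, 0, 1 and 2 in the 3 of Sema4d, 3 and 2 in the 2 of Plxnb2, 2 in Plxnc1 and 0 in Plxnd1. A match is a run of letters and not a bound site, and binding was not measured.

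Sema4d, also known as CD100, a membrane semaphorin of lymphocytes that is shed by proteases and acts on plexin-B1, plexin-B2 and the B cell receptor CD72, was lower in Ikzf4-/- cells. It was measured at 234, 212, 428 and 363 CPM in wild-type libraries 1 to 4 and at 160, 162, 240 and 202 CPM in Ikzf4-/- libraries 1 to 4. Each Ikzf4-/- library was below the wild-type library of its number, while across numbers the groups overlapped, since both genotypes were higher at numbers 3 and 4. The means were 309 ± 103 and 191 ± 38.2 CPM, and the log2 difference fell by 0.65 ± 0.091 (adjusted p = 0.00471). Without the block the adjusted p was 0.496, and without each pair in turn it was 0.00214 to 0.0298.

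Sema7a, a semaphorin held to the membrane by a lipid anchor and a ligand of plexin-C1 and of integrins with the beta-1 chain (Itgb1), was lower too. The libraries of wild-type cells held 188, 84.4, 263 and 188 CPM and those of Ikzf4-/- cells 112, 70.3, 201 and 125 CPM, in the order of the numbers. Both genotypes were lowest at number 2 and highest at number 3, and the groups overlapped. Its log2 difference was -0.50 ± 0.089 with adjusted p = 0.0146, and 0.818 without the block. The call was lost without pair 1 (adjusted p = 0.0638) and without pair 4 (0.0558), and without pair 3 it was 0.0497.

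Sema4a, a membrane semaphorin known in the mouse for T cell priming and Th1 responses, showed no called difference. Wild-type libraries 1 to 4 held 70.3, 46.7, 55.4 and 34.8 CPM and Ikzf4-/- libraries held 70.6, 60.0, 28.0 and 21.9 CPM. Pairs 1 and 2 were level or higher in Ikzf4-/- cells and pairs 3 and 4 were lower, with log2 differences of 0.006, 0.36, -0.98 and -0.67. The fitted value was -0.31 ± 0.20 with adjusted p = 0.42.

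Plxna1, a plexin that pairs with neuropilins for class 3 semaphorins and binds Sema6d, was higher in Ikzf4-/- cells. Libraries 1 to 4 held 49.6, 44.97, 26.6 and 30.9 CPM in wild type, against 53.8, 77.7, 38.1 and 51.8 CPM in Ikzf4-/- cells. The Ikzf4-/- library was higher in 4 of 4 pairs, with pair 1 apart by 0.12 and the others by 0.52 to 0.79 on the log2 scale, and the groups overlapped. The fitted log2 difference was 0.54 ± 0.12 (adjusted p = 0.0303). That call was lost without the block (adjusted p = 0.646) and without pair 2 (0.0574), pair 3 (0.109) or pair 4 (0.103), and without pair 1 the value was 0.0177. Of its exon bases, 970 (10.7%) also belong to Gm26811 on the opposite strand, which had 107 counts over the 8 libraries against 13791 for Plxna1, and the strand setting of the counting is not given in the sources used here.

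Plxnb2, a receptor for class 4 semaphorins, was higher in 4 of 4 pairs but was not called. Its CPM were 11.6, 6.01, 8.83 and 10.4 in wild-type and 13.3, 12.8, 13.3 and 11.1 in Ikzf4-/- libraries. The 2 groups overlapped only through wild-type library 1, and the pair differences ran from 0.097 to 1.09 on the log2 scale. The fitted value was 0.49 ± 0.17 with adjusted p = 0.131.

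Plxnc1, the receptor of Sema7a, held 124, 96.9, 67.5 and 85.7 CPM in wild-type, against 134, 92.4, 48.5 and 60.6 CPM in Ikzf4-/- libraries. Both genotypes were highest at number 1 and lowest at number 3, and the pairs did not share a direction. The log2 difference was -0.23 ± 0.11 with adjusted p = 0.283. For Plxnd1, known as a receptor of Sema3e and also of Sema4a, the values were 30.6, 34.4, 43.3 and 48.3 CPM in wild-type, against 33.0, 66.1, 42.2 and 59.2 CPM in Ikzf4-/- libraries. Ikzf4-/- library 2 was the highest of the 8, pair 3 was level, and the log2 difference was 0.33 ± 0.15 with adjusted p = 0.24.

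Per length, the ligand genes Sema7a and Sema4d had the highest mean levels of the 9 in both genotypes. Sema7a stood first at 54.8 ± 22.2 CPM per kb of exon in wild-type and 38.5 ± 16.5 in Ikzf4-/- cells, and Sema4d next at 40.3 ± 13.5 and 24.9 ± 5.0. The libraries of these 2 genes overlapped, and in wild type all of Sema4d's lay above all of Plxnc1's (11.2 ± 2.83 CPM per kb). Then came Plxnc1, Sema4a (9.58 ± 2.77 in wild type), Plxnd1 (5.36 ± 1.11) and Plxna1 (4.20 ± 1.22), with neighbours that overlapped. Nrp1 at 1.71 ± 0.25 CPM per kb in wild type lay below all libraries of Plxna1, and at 4.45 ± 0.92 in Ikzf4-/- cells its libraries overlapped those of Plxna1 (6.11 ± 1.82). Nrp1 went from rank 11 to rank 8 of the 31 family genes in the file but remained in place 7 of the 9. Plxnb2 (1.19 ± 0.31) overlapped Nrp1 in wild type, and Nrp2 was lowest at 0.042 ± 0.021 CPM per kb.

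**Figure D2:**
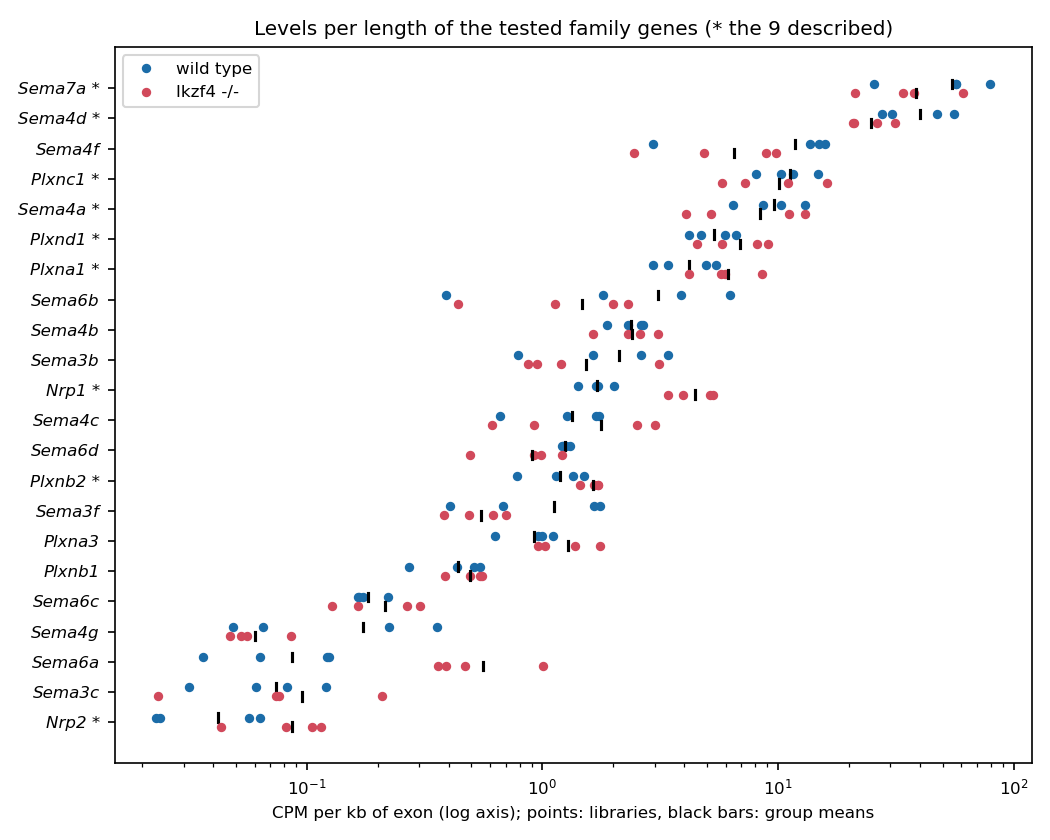
CPM per kb of exon, on a log axis, of the 22 tested family genes, with 1 point per library, blue for wild type and red for Ikzf4-/-, and black bars for group means. Sema7a and Sema4d lie highest in both genotypes, and the red points of Nrp1 and Sema6a lie to the right of all their blue points.

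The libraries of a genotype differed among themselves, and for some of the genes the same numbers were high or low in both genotypes. The SD of log2 CPM between the 4 numbers was 0.65 for Sema7a, 0.61 for Nrp2, 0.58 for Sema4a, 0.51 for Plxnc1, 0.40 for Plxna1, 0.38 for Sema4d, 0.32 for Plxnd1, 0.25 for Nrp1 and 0.205 for Plxnb2, against a median of 0.234 over all genes tested. Sema4d was above its genotype mean at numbers 3 and 4 and below it at 1 and 2 in both genotypes, by 0.53 in wild-type library 3 and 0.35 in Ikzf4-/- library 3. Plxnc1 showed the opposite order, 0.44 and 0.79 above at number 1 and 0.44 and 0.68 below at number 3. Sema4a took opposite sides of its genotype means at number 2 (-0.10 in wild-type and 0.58 in Ikzf4-/- cells) and number 3 (0.14 and -0.52). Plxnd1 did so at number 2 (-0.16 and 0.45) and number 3 (0.17 and -0.19), and Plxnb2 among others at number 2 (-0.57 and 0.02) and number 4 (0.22 and -0.18). Nrp1 stayed within 0.36 of its genotype mean in all 8 libraries.

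**Figure D3:**
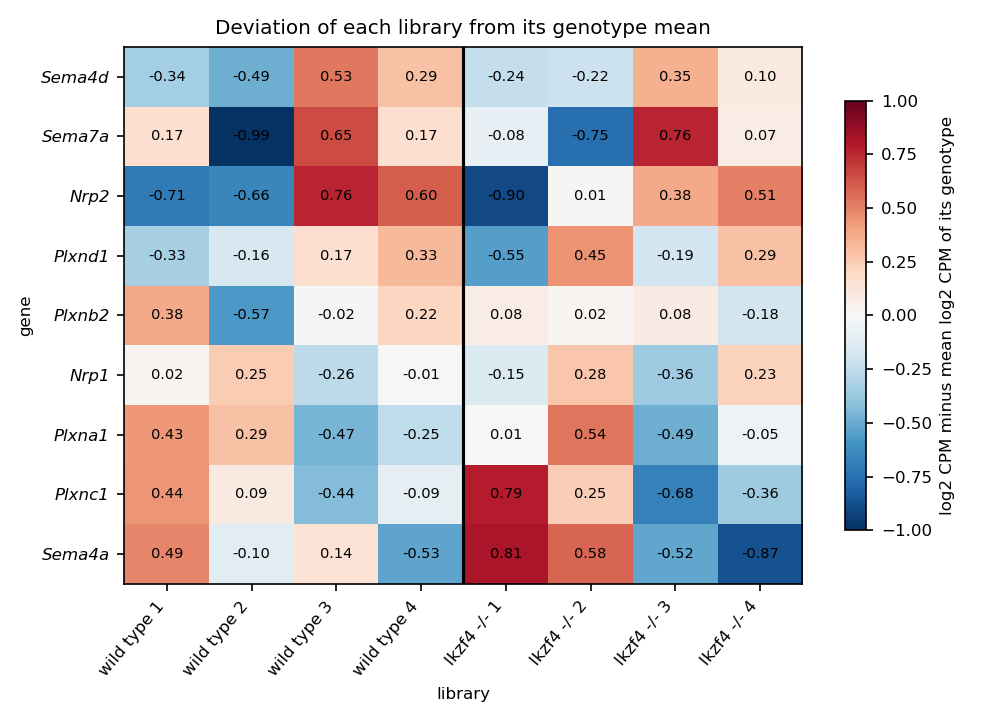
Log2 CPM of each library minus the mean log2 CPM of its genotype, for the 9 genes (rows) in 4 wild-type and 4 Ikzf4-/- libraries (columns), red above and blue below the mean. Sema7a is lowest at number 2 in both genotypes (-0.99 and -0.75), and Plxnc1 and Sema4a are highest at number 1 in both.

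Among 8512 genes with a mean of 10 CPM or more, those whose log2 CPM followed each called member most closely over the 8 libraries are given as a description. For Nrp1, Sf3b3, a splicing factor subunit, was among the 2 closest (Pearson r 0.978), with means of 371 ± 16.4 CPM (wild type) and 446 ± 19.6 CPM (Ikzf4-/-). For Sema4d they were Fkbp2 (0.994) and Fkbp5 (0.994), both FK506-binding prolyl isomerases. For Sema7a they were Alpk2 (0.978) and Tnfrsf8 (0.975), the latter the activation receptor CD30, and for Plxna1 they were Nol6 (0.998), a nucleolar protein, and Chst15 (0.985), a sulfotransferase. All 8 libraries share the genotype split and the numbers.

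Of the other 22 semaphorin and plexin genes, 13 passed the filter, 1 was higher (Sema6a), 1 was lower (Sema4f) and 11 were not called, with a median log2 difference of 0.0091. This count of 2 in 13 stands beside 6.71% over all genes and is too small to set the family apart. The 9 below the filter were Sema3a, Sema3d, Sema3e, Sema3g, Sema5a, Sema5b, Plxna2, Plxna4 and Plxnb3. Without the block 0 of the 13 were called by edgeR, 3 had an unadjusted p under 0.05, and DESeq2 called 1, Sema6a.

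Sema6a, a membrane semaphorin that binds plexin-A2 and plexin-A4, had the largest difference of the tested family genes. Its wild-type libraries 1 to 4 held 1.09, 1.07, 0.556 and 0.317 CPM and its Ikzf4-/- libraries 4.13, 8.84, 3.43 and 3.17 CPM. The groups did not overlap, and Ikzf4-/- library 2 stood above the other 3. Counts were 48, 38, 17 and 8 in wild-type and 145, 476, 88 and 84 in Ikzf4-/- libraries. The log2 difference was 2.65 ± 0.25 with adjusted p = 0.000839, and 0.00118 to 0.00451 without each pair in turn. Without the block edgeR gave adjusted p = 0.149. The value in the authors' deposited table was 2.30e-06, from DESeq2. Both of its known receptor genes, Plxna2 and Plxna4, were below the filter.

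Sema4f, a membrane semaphorin of class 4, held 72.0, 15.6, 83.4 and 79.1 CPM in wild-type, against 47.1, 12.9, 52.1 and 25.7 CPM in Ikzf4-/- libraries. It was lower in 4 of 4 pairs, and both libraries numbered 2 were far below the others, so the groups overlapped. The log2 difference fell by 0.80 ± 0.19 (adjusted p = 0.0407, and 0.761 without the block), and the call was lost without pair 1 (0.104) or pair 3 (0.101). Among those not called by edgeR, Sema6b differed by -0.80 ± 0.24 (adjusted p = 0.0941), but DESeq2 with the block called it (0.0196). Sema3f differed by -0.83 ± 0.32 (0.177), Plxna3 by 0.46 ± 0.15 (0.106) and Sema4b by 0.0091 ± 0.13 (0.979).

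**Figure D4:**
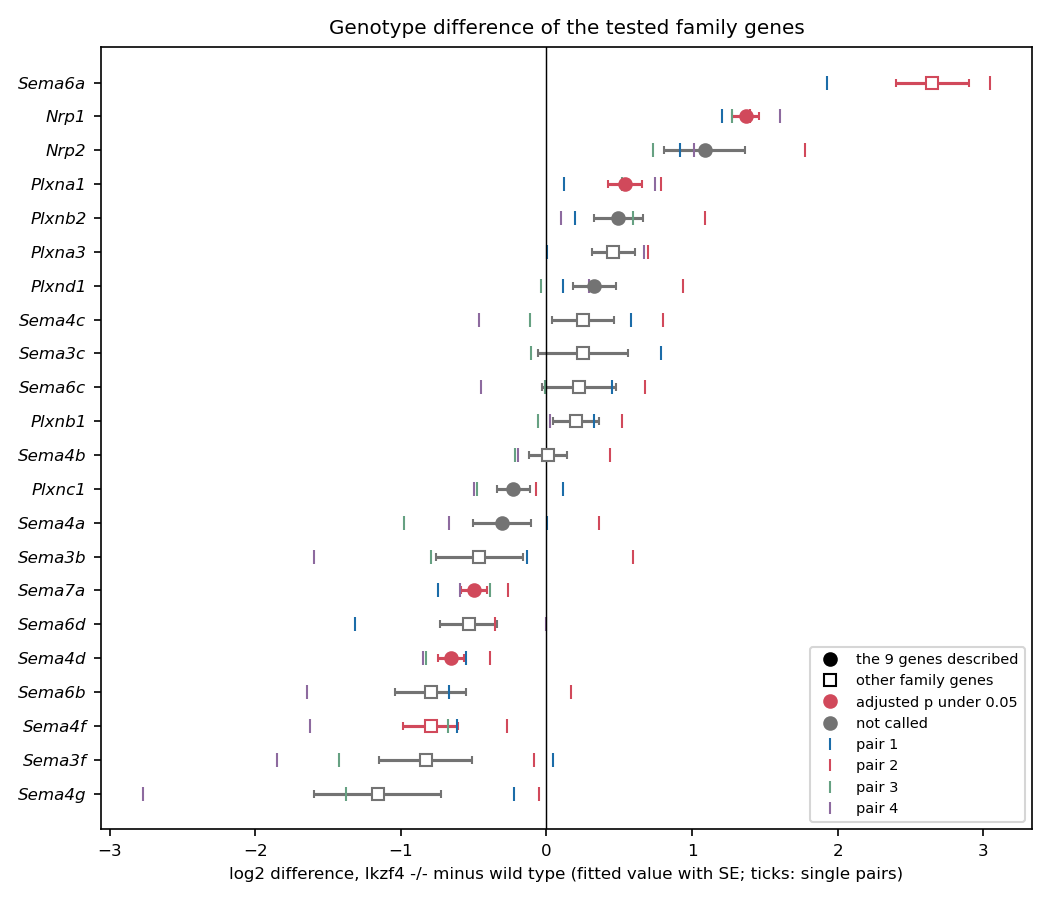
Log2 difference, Ikzf4-/- minus wild type, of the 22 tested family genes, as the fitted value with its SE (circles for the 9 genes, open squares for the others, red where the adjusted p is under 0.05) and coloured ticks for single pairs, left out where a library had under 10 counts. Sema6a at 2.65 and Nrp1 at 1.37 lie farthest to the right with all their ticks above 0, and the ticks of Sema4a and Plxnd1 fall on both sides of 0.

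The genes around the family were read from lists of co-receptors and other ligands (23), shedding and processing enzymes (6) and signalling genes below plexins (43). Of these 72 genes 59 were tested, 4 were higher, 3 were lower and 52 were not called, with a median log2 difference of -0.057. These 7 of 59 stand beside 6.71% called over all genes. Without the block 0 of 59 were called by edgeR, 9 had an unadjusted p under 0.05, and DESeq2 called 2.

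Among co-receptors and other ligands (13 tested), Itgb1, the beta-1 integrin chain that Sema7a binds, rose from 199 ± 41.5 to 267 ± 39.3 CPM (log2 difference 0.44 ± 0.074, adjusted p = 0.0113). That call was lost without the block (0.55), without pair 1 (0.0654) and without pair 3 (0.0718). Havcr2, which encodes the inhibitory receptor Tim-3, fell from 18.8 ± 9.20 to 5.11 ± 2.51 CPM. It was lower in 4 of 4 pairs, and the groups did not overlap. Its log2 difference was -1.87 ± 0.12, with adjusted p = 0.000201 in edgeR. Without the block the adjusted p was 0.237 in edgeR and 0.000531 in DESeq2. Havcr2 stood on the list as a relative of Timd2, the mouse Sema4a receptor Tim-2, which was not called (0.65 ± 0.36, adjusted p = 0.344). Neither of the listed Nrp1 ligands Tgfb1 and Vegfa was called by edgeR. Tgfb1 was at 290 ± 14.9 and 267 ± 43.5 CPM (-0.13 ± 0.080, adjusted p = 0.396). Vegfa was at 30.4 ± 19.6 and 20.8 ± 10.7 CPM (-0.44 ± 0.135, 0.0942). It was lower in 4 of 4 pairs, and DESeq2 with the block called it (adjusted p = 0.0346). Cd72, the Sema4d receptor of B cells, stayed below 1 CPM on average in both genotypes (-0.44 ± 0.27, 0.405).

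Among the enzymes (5 tested), Mmp14, a membrane metalloprotease known to release Sema4d in tumour cells, fell from 2.92 ± 1.52 to 1.45 ± 0.94 CPM (log2 difference -1.09 ± 0.21, adjusted p = 0.0199). The call was lost without the block (0.715), without pair 1 (0.066) and without pair 3 (0.099). Furin, a protease that cleaves semaphorins and TGF-beta precursors, was at 999 ± 334 and 664 ± 168 CPM (-0.54 ± 0.14). Its adjusted p with the block was 0.0554 in edgeR and 0.00235 in DESeq2. The sheddases Adam10 (0.12 ± 0.094, 0.515) and Adam17 (0.058 ± 0.077, 0.716) were not called.

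Of the signalling genes (41 tested), 3 were higher, 1 was lower and 37 were not called by edgeR. DESeq2 with the block tested 39 and called 3 higher and 3 lower, beside 1385 of 14363 over all genes. Rhod (higher, adjusted p = 0.0428), Rras2 (lower, 0.0117) and Sh3bp1 (lower, 0.0173) were called only there. With the block edgeR gave them 0.0683, 0.0561 and 0.0697. Tiam1, an exchange factor that activates Rac, rose from 57.5 ± 15.2 to 94.3 ± 7.05 CPM (log2 difference 0.75 ± 0.13, adjusted p = 0.014). Its wild-type libraries held 64.3, 38.8, 74.1 and 52.9 CPM and its Ikzf4-/- libraries 100.5, 95.3, 97.3 and 84.3 CPM, with no overlap. In edgeR the adjusted p was 0.0513 without pair 1 and 0.312 without the block, while DESeq2 without the block called Tiam1 (0.0378). Farp1, an exchange factor that binds class A plexins, rose by 0.39 ± 0.075 (adjusted p = 0.0196), and the call was lost without the block (0.662) and without pair 1 (0.0724), pair 3 (0.0833) or pair 4 (0.0519). Dpysl3, a collapsin response mediator protein, rose by 2.0 ± 0.44 (adjusted p = 0.0323) from 13 wild-type and 53 Ikzf4-/- counts in all, and the call was lost without the block (0.294) and without pair 3 (0.118) or pair 4 (0.0989). Without pair 1 or pair 2 Dpysl3 was below the count filter and had no value, and DESeq2 with the block gave it no adjusted p. Fes, a tyrosine kinase that acts below plexin-A1, fell by 0.56 ± 0.14 (adjusted p = 0.0456), and the call was lost without the block (0.717) and without pair 1 (0.129), pair 3 (0.149) or pair 4 (0.116). Gipc1, the scaffold that binds the tail of neuropilin-1, was at 83.2 ± 4.07 and 88.9 ± 13.7 CPM (0.086 ± 0.084, 0.611).

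In the GRCm38 genome with the GENCODE M21 annotation, the 9 genes lie apart from one another except for the pair on chromosome 6. Nrp1 spans chr8:128358604-128503363 and Nrp2 chr1:62703285-62818695. Sema4a is at chr3:88435959-88461182, Sema4d at chr13:51685529-51793747 and Sema7a at chr9:57940112-57962865. Plxna1 (chr6:89316314-89362620) and Plxnd1 (chr6:115954811-115995005) share a chromosome, Plxnb2 is at chr15:89155549-89180788, and Plxnc1 at chr10:94790866-94944835 is on the chromosome of Ikzf4 (chr10:128630843-128645991). The counts cover whole genes, so exons, isoforms and cut or shed forms of these proteins were not separated.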

How the data were processed

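RNA sequencing covered 4 wild-type and 4 Ikzf4-/- libraries. The authors deposited 1 table of whole-number read counts for 49040 genes beside their own DESeq2 comparison. Per the file headers, the latter holds a mean normalized signal, log2 fold changes (wild type over knockout), their standard error and test score, and p-values with adjusted p-values. Per the submitters' processing notes, STAR 2.5.2, featureCounts of Subread 1.5.2, DESeq2 and the build GRCm38 were used, while annotation, strand setting and multi-match handling were not given in the sources used here.

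From the counts, edgeR 4.0.16 in R 4.3.3 (filterByExpr, TMM factors, quasi-likelihood test, genotype plus library number as a block) tested 14672 genes with Benjamini-Hochberg adjustment at 0.05. Column names equal the sample titles. The block was taken because same-numbered libraries deviated together (r 0.612 to 0.732 across genes), since the labels state no pairing, and with earlier results known. CPM uses TMM factors, and errors are SDs of 4 libraries or SEs of the fit. Libraries of a group differed by a chi-square per degree of freedom of 14.5 or more, so none was a repeat deposit. The fits were tested on simulated data with known changes. Those simulated data were drawn from the blocked model, so they cannot show whether the block suits these libraries.

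The members and lists were chosen with earlier results of these data known. Named genes were the members, Ikzf4, up to 3 called genes per list and direction by smallest p, the fixed genes Tgfb1, Vegfa, Gipc1, Cd72 and Timd2, and the 2 genes most like each called member by Pearson r of log2 CPM (prior count 2), of which 1 is not reported here. A few not called were added as examples after their values were seen. Tried as alternatives were no block, no filter, a filter of 1 CPM in 4 libraries, RLE factors, DESeq2 1.42.0 with and without the block, and each pair left out. Exon lengths and positions come from GENCODE M21 and start windows from RefSeq; RefSeq proteins were not used here.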

Additional observations from a re-analysis of the deposited data

Results flagged for a closer look

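Within groups of 4 libraries, 1 library standing far from the rest was looked for in 64 groups, 32 named genes in each genotype, by the gap to its nearest neighbour as a share of the group's range (Dixon's 95% limit). Chance flags about 1 in 20 such groups, and 3 were found. Sema6a stood at 8.84 CPM in Ikzf4-/- library 2, against 3.17 to 4.13 CPM in the other Ikzf4-/- libraries (share 0.831). Sema4f stood at 15.6 CPM in wild-type library 2, against 72.0 to 83.4 CPM in the other wild-type libraries (0.832), and Ikzf4-/- library 2 was also the lowest of its group, at 12.9 CPM. Dpysl3 stood at 0.546 CPM in Ikzf4-/- library 3, against 0.314 to 0.353 CPM in the others (0.831), on 14 counts.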

How the results depend on the processing

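The blocked edgeR fit called 984 genes, 4 of the 9 members, 2 other family genes and 7 of the surrounding genes. Without the replicate block the counts were 23, 1, 0 and 0 (with 3 and 9 at an unadjusted p under 0.05 for the last 2), and with DESeq2 without the block they were 225, 1, 1 and 2. Without the filter on low counts all 27828 genes with a count were fitted. Called then were 2124 of these, 8 of 9 members, 8 of 22 other family genes and 17 of 70 surrounding genes. DESeq2 with the block called 11 surrounding genes, and its other counts, those with RLE factors and those with the stricter filter stayed within 1.5 times. Leaving out each pair gave 398 to 1437 genes, 2 to 3 members, 1 to 3 other family genes and 2 to 11 surrounding genes, the lowest total without pair 3 and the highest without pair 2. Of 175 values with an adjusted p for 18 single genes under the alternatives, 130 kept their direction and side of the threshold, 41 lost the call, 4 gained one (Nrp2, Sema4a, Plxnb2 and Plxnd1 without the filter) and 0 turned direction. The cause was not tested. Between TMM and RLE factors the median log2 difference of all genes was 0.0027 and 0.0026. Depth limits Nrp2 (200 counts in all), Dpysl3 (66) and the wild-type level of Sema6a (111).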

Other observations

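Sema4g, Sema3f and Sema6b (classes 4, 3 and 6) varied with the library number more in wild-type than in Ikzf4-/- cells, as values only. Other members of classes 3 and 4 went both ways, so no trend of a class is read from the values. With wild type first, Sema3c had SDs of 0.267 and 0.562 CPM and Sema4c of 2.27 and 5.41 CPM. Sema6d had SDs of 0.453 and 3.19 CPM. The SD was larger in wild type for Sema4d (103 and 38.2 CPM), Sema4f (31.6 and 18.4 CPM) and Sema3b (5.48 and 5.09 CPM). Sema4g was at 0.566, 0.423, 1.93 and 3.09 CPM in wild-type libraries 1 to 4 and at 0.485, 0.409, 0.741 and 0.453 CPM in Ikzf4-/- libraries. Sema3f was at 3.53, 2.11, 8.61 and 9.12 CPM against 3.65, 1.99, 3.20 and 2.53 CPM. Sema6b was at 7.18, 1.55, 15.4 and 24.8 CPM against 4.50, 1.75, 9.13 and 7.93 CPM. None of Sema4g, Sema3f and Sema6b was called in the blocked edgeR fit, and these 3 genes were singled out after their values were seen. A difference between numbers in the size of the genotype difference was not tested.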
